A study of Mus musculus with 8 samples.

Results

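The 33 genes described here encode the machinery that makes, senses and moves cholesterol. They were picked by symbol from the 23427 genes of the deposited table, and all 33 were found and passed the filter on low values. By role they fall into 8 enzymes before squalene, 12 enzymes from squalene to cholesterol, 7 genes of SREBP control, and 6 genes of sterol transport, esterification and the LXR receptors. A further 38 genes around the pathway are counted separately at the end, and its remaining genes were not analysed here.

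The study profiled mRNA of mouse primary oligodendrocyte precursor cells (OPCs), the progenitors that mature into oligodendrocytes (OLs), at the start (Day 0) and after 1, 2 and 3 days of differentiation, with 2 replicates for each day and 8 libraries in all. All libraries carry the labels C57BL/6J and WT. Each preparation used the cortex of 3 pups aged 7 days, and OPCs were caught on dishes that carry an antibody against PDGFRα (immunopanning). They were grown with PDGF-AA and CNTF and differentiated by withdrawing PDGF-AA and adding the thyroid hormone T3 (40 ng/mL), so Day 0 is the only group outside the differentiation medium, and time in culture and time in that medium cannot be told apart. The labels describe a medium with serum and the methods one without. None of these 8 libraries comes from cells kept in growth medium beyond Day 0. The methods call the replicates independent, without saying whether libraries with the same number on different days came from the same preparation, so p-values measure the spread between these libraries only. Levels are in FPKM (fragments scaled to transcript length and to the mapped fragments of the library), and pairs of values are given as replicate 1 and replicate 2.

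Cholesterol is built from acetyl-CoA. The early enzymes make mevalonate and then the isoprenoids, farnesyl units are joined in pairs to squalene, squalene is closed to lanosterol, and a chain of sterol enzymes trims lanosterol to cholesterol. Most of these genes are targets of SREBP2, encoded by *Srebf2*: when the membrane of the endoplasmic reticulum is poor in sterol, SCAP escorts SREBP to the Golgi, where the site proteases *Mbtps1* and *Mbtps2* release its active part, and INSIG proteins hold SCAP back when sterol is plentiful. The LXR receptors (*Nr1h2*, *Nr1h3*) sense oxysterols and drive efflux pumps such as *Abca1* and *Abcg1*. Myelin is rich in cholesterol, and OLs make much of it themselves because blood cholesterol hardly enters the brain.

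To show the sequence around which motifs of SREBP and its partner factors lie, the upstream stretch of 5 members is printed from RefSeq (GRCm38.p6). *Hmgcs1* and *Insig1* were taken from the 19 members whose mean level was highest on Day 1. *Hsd17b7*, *Ebp* and *Sc5d* are the 3 enzymes whose mean was highest on Day 3. With *Acat2*, *Hmgcs1* and *Insig1* are also the only members with the shorter form of the sterol regulatory element counted below. They therefore do not stand for all Day 1 genes. The stretches run 5′ to 3′ on the gene's strand from position -180 up to the last base before any annotated transcript. They cover chr13:119690171-119690350 (plus strand) for *Hmgcs1*, chr5:28071232-28071362 (plus strand) for *Insig1*, chr1:169969242-169969385 (minus strand) for *Hsd17b7*, chrX:8193513-8193692 (minus strand) for *Ebp* and chr9:42264301-42264480 (minus strand) for *Sc5d*. Capitals mark every whole match, on either strand, to the sterol regulatory element (TCACNCCAC), the E-box (CACGTG), the NF-Y box (CCAAT) and the Sp1 box (GGGCGG).
Hmgcs1: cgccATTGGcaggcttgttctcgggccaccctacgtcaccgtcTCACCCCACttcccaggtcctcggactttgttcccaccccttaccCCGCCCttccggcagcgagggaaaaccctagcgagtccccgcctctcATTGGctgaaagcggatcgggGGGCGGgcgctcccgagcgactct
Insig1: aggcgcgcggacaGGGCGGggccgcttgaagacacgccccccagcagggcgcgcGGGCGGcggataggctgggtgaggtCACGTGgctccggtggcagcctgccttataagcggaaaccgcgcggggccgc
Hsd17b7: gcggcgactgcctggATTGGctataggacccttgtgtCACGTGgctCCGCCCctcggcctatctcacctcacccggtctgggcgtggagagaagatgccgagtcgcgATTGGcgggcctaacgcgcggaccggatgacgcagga
Ebp: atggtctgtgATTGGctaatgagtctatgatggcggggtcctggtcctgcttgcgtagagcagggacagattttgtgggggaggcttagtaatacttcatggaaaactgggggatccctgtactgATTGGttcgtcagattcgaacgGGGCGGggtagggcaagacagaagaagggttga
Sc5d: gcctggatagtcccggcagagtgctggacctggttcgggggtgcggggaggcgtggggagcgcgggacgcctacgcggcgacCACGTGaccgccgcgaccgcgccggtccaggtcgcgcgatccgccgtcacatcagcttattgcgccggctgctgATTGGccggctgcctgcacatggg

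Motifs were counted in windows of 250 bases before to 50 bases after each start site, which existed for 28 of the 33 members (37 windows). *Fdps*, *Fdft1*, *Sqle*, *Stard4* and *Abcg1* had none. Of the 32851 windows of all genes, 37.4% held an NF-Y box and 35.7% an Sp1 box. Among the members' windows these shares were 59.5% and 73.0%. The E-box was in 7.15% of all windows and 18.9% of the members', with matches in *Abca1*, *Dhcr7*, *Hsd17b7*, *Insig1*, *Sc5d* and *Scap*. The sterol regulatory element was in 1.24% of all windows and in 1 member, *Hmgcs1*, at position -137. Its shorter form CACNCCAC, which lies inside it and was searched after seeing those counts, was in 6.24% of all windows and in *Acat2*, *Hmgcs1* and *Insig1*. The LXR element of DR4 type was searched only as an exact repeat of AGGTCA, which 5 of the 32851 windows held (0.0152%). With so rare a match a count of 0 members was nearly fixed in advance. It does not show that members lack LXR elements, and *Abcg1* had no window. Both the Day 1 and the Day 3 genes printed above hold NF-Y or Sp1 boxes. These matches are exact letters in a window, so variant forms of a motif were not counted, and binding was not measured.

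The marker sums of OLs and OPCs followed the labels. Summed over 5 OL markers, such as *Mbp* and *Mog*, the level was 508 to 549 FPKM on Day 0 and 12374 to 17214 FPKM on Day 3, while the sum of 4 OPC markers, such as *Pdgfra* and *Cspg4*, went from 1002 to 1035 FPKM down to 162 to 261 FPKM. *Gpr17*, also among these 4, first rose, from 232 and 279 FPKM on Day 0 to 454 and 449 FPKM on Day 1 (limma log2 change 0.82, adjusted p 0.0401). On Day 3 it was at 185 and 116 FPKM. Of 5 microglia markers 4 were listed at 0 in every library. The sums of 3 endothelial and 2 mural markers reached at most 3.31 and 0.339 FPKM, and the 5 neuron markers summed to 31.4 to 233 FPKM, of which *Tubb3* made up 20.8 to 231 FPKM. The sum of 7 astrocyte markers was 120 to 167 FPKM in replicate 1 and 354 to 952 FPKM in replicate 2, and each of the 7 was higher in replicate 2 on all 4 days. Depth, estimated from the steps between low values, was 950000 to 1525000 fragments per library, at which 1 fragment of a 2-kb transcript is worth 0.328 to 0.526 FPKM. In such bulk samples a smaller share of cells of a type and less RNA per cell cannot be told apart.

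Most genes of cholesterol synthesis were highest on Day 1. Between Day 0 and Day 1, 17 of the 20 enzymes rose, 1 fell (*Lbr*) and 2 did not pass the test (*Ggps1* and *Ebp*). Across all 33 genes 19 rose and 1 fell, with *Insig1* and the sterol carrier *Stard4* joining the enzymes. Of all 12208 genes tested, 5.04% rose and 7.56% fell in this comparison. The median change of the 20 enzymes was 1.29 on the log2 scale, against -0.07 for all genes. These calls are from limma on log2(FPKM + 1) with Benjamini-Hochberg adjustment over all genes, at an adjusted p under 0.05, and the scale understates changes of weakly expressed genes. The 19 rises included the same 19 genes under the other pseudocount, both other filters, median ratio scaling and the replicate block. With fewer libraries the count was smaller: 10 rose without Day 0 replicate 1 or without Day 0 replicate 2, and 11 without Day 1 replicate 2, while *Lbr* was not called in any of these 3 fits. Calls of all genes were also fewer in each of these 3 fits. Each of these fits leaves a day with 1 library, which is assumed to vary like the others.

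**Figure D1:**
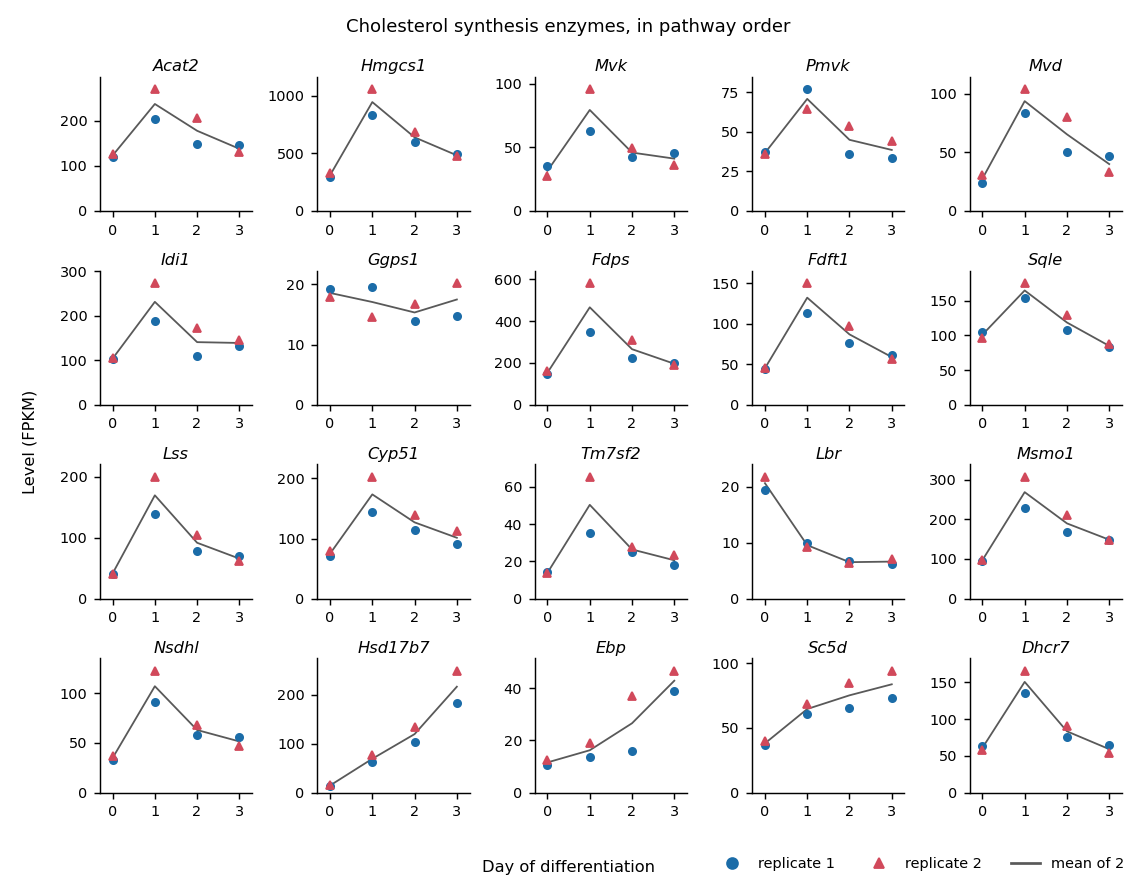
Level (FPKM, axes from 0) of the 20 synthesis enzymes in pathway order against day of differentiation; circles are replicate 1, triangles replicate 2, and lines join the means of 2. The mean is highest on Day 1 for 15 of the 20, on Day 3 for *Hsd17b7*, *Ebp* and *Sc5d*, and on Day 0 for *Lbr* and *Ggps1*.

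The enzymes at the start of the pathway had their highest means on Day 1. *Acat2*, the thiolase that joins acetyl-CoA units, was at 119 and 127 FPKM on Day 0, 204 and 271 FPKM a day later, 149 and 207 FPKM on Day 2 and 146 and 129.9 FPKM at the end (Day 3). *Hmgcs1*, the HMG-CoA synthase, had the highest level of the 20 enzymes and was at 294 and 325 FPKM at the start, 831 and 1061 FPKM on Day 1, 597 and 682 FPKM by Day 2 and 492 and 474 FPKM by Day 3. Both Day 1 libraries of *Hmgcs1* lay above the other 6, while for *Acat2* the lower Day 1 value was just under the higher Day 2 value. *Hmgcs1* rose by 1.60 on the log2 scale from Day 0 to Day 1 (SE 0.16, adjusted p 0.00101), a ratio of means of 3.05, and *Acat2* by 0.93 (SE 0.19, adjusted p 0.0174). The call of *Acat2* was lost in 3 of the 4 fits without a Day 0 or Day 1 library, all but that without Day 1 replicate 1 (adjusted p 0.0975 to 0.123). Of the 50-base stretches of *Acat2*, 39.1% also occur in *Acat3* or *Tcp1*, so its reads may be shared.

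The kinases and the decarboxylase that turn mevalonate into isopentenyl diphosphate followed the same days. *Mvk*, mevalonate kinase, was at 35.8 and 27.5 FPKM before differentiation (Day 0), then 62.9 and 96.2 (Day 1), 42.6 and 49.3 (Day 2) and 45.9 and 36.5 FPKM (Day 3). *Pmvk*, phosphomevalonate kinase, was at 37.3 and 35.9 FPKM on Day 0, 77.1 and 64.4 FPKM a day later, 36.0 and 53.8 FPKM on Day 2 and 33.1 and 43.9 FPKM at the end (Day 3). *Mvd*, the decarboxylase, was at 24.1 and 31.0 FPKM at the start, 83.3 and 104 FPKM on Day 1, 50.4 and 80.6 FPKM by Day 2 and 46.9 and 33.2 FPKM by Day 3. In each of the 3, both Day 1 libraries exceeded all others. Their rises from Day 0 to Day 1 on the log2 scale were 1.28 for *Mvk* (SE 0.23, adjusted p 0.00891), 0.93 for *Pmvk* (SE 0.22, adjusted p 0.0277) and 1.73 for *Mvd* (SE 0.26, adjusted p 0.00396). The call of *Pmvk* was lost without any 1 of the 4 libraries of Day 0 and Day 1 (adjusted p 0.0763 to 0.159), that of *Mvk* without Day 0 replicate 2 or Day 1 replicate 2 (0.0900 and 0.0587) and that of *Mvd* without Day 0 replicate 1 (0.0504).

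*Idi1*, the isomerase, and *Fdps*, which makes farnesyl diphosphate, complete the route to squalene. *Idi1* was at 103 and 105 FPKM before differentiation (Day 0), then 189 and 274 (Day 1), 109 and 173 (Day 2) and 132 and 146 FPKM (Day 3). *Fdps* was at 145 and 162 FPKM on Day 0, 349 and 584 FPKM a day later, 224 and 308 FPKM on Day 2 and 201 and 192 FPKM at the end (Day 3). Both rose by Day 1, *Idi1* by 1.12 on the log2 scale (SE 0.24, adjusted p 0.0183) and *Fdps* by 1.55 (SE 0.24, adjusted p 0.00485). *Idi1* was not called without Day 0 replicate 1, Day 0 replicate 2 or Day 1 replicate 2 (adjusted p 0.114 to 0.118), nor *Fdps* without Day 0 replicate 1 (0.0587). *Ggps1*, which diverts farnesyl units to geranylgeranyl diphosphate for protein prenylation, stood apart with a range of 13.9 to 20.3 FPKM over the 8 libraries and overlapping days. Its log2 change was -0.13 (SE 0.23, adjusted p 0.780). *Idi1* and *Fdps* share 25.3% and 26.2% of their 50-base stretches with other annotated genes.

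From squalene on, the enzymes up to *Nsdhl* also stood highest on Day 1, with *Lbr* as the exception. *Fdft1*, squalene synthase, was at 44.3 and 45.8 FPKM at the start, 114 and 150.4 FPKM on Day 1, 76.3 and 97.2 FPKM by Day 2 and 60.9 and 56.8 FPKM by Day 3. *Sqle*, squalene epoxidase, was at 105 and 96.7 FPKM before differentiation (Day 0), then 154 and 176 (Day 1), 108 and 129 (Day 2) and 82.7 and 87.0 FPKM (Day 3). *Lss*, which closes the ring to lanosterol, was at 41.2 and 41.2 FPKM on Day 0, 139 and 199.9 FPKM a day later, 78.6 and 105 FPKM on Day 2 and 70.0 and 61.2 FPKM at the end (Day 3). Both Day 1 libraries were the highest for all 3 genes, and *Lss* had the largest ratio of Day 1 to Day 0 means among the enzymes that peaked on Day 1 (4.11). On the log2 scale *Lss* rose by 1.99 (SE 0.20, adjusted p 0.00108), *Fdft1* by 1.52 (SE 0.18, adjusted p 0.00140) and *Sqle* by 0.70 (SE 0.14, adjusted p 0.0140), which was not called without Day 0 replicate 1, Day 0 replicate 2 or Day 1 replicate 2 (adjusted p 0.0700 to 0.114). *Fdft1* overlaps *Ctsb* on the opposite strand over 774 exon bases. The mean of *Ctsb* went from 44.1 FPKM on Day 0 through 54.3 and 79.8 to 95.6 FPKM on Day 3, a different order of days.

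The next enzymes remove methyl groups from lanosterol and reduce its ring. *Cyp51*, the lanosterol demethylase, was at 71.1 and 78.4 FPKM at the start, 144 and 203 FPKM on Day 1, 114 and 139 FPKM by Day 2 and 90.8 and 112 FPKM by Day 3. *Msmo1*, the sterol methyl oxidase, was at 95.8 and 98.3 FPKM before differentiation (Day 0), then 229 and 307 (Day 1), 168 and 211 (Day 2) and 149 and 148 FPKM (Day 3). *Nsdhl*, the sterol dehydrogenase, was at 32.3 and 37.1 FPKM on Day 0, 91.2 and 123 FPKM a day later, 57.7 and 68.1 FPKM on Day 2 and 56.2 and 46.6 FPKM at the end (Day 3). These 3 had no overlap between the Day 1 libraries and any other day. Their rises from Day 0 to Day 1 on the log2 scale were 1.18 (SE 0.20, adjusted p 0.00605), 1.44 (SE 0.17, adjusted p 0.00146) and 1.58 (SE 0.19, adjusted p 0.00146). *Cyp51* was not called without Day 0 replicate 1 (adjusted p 0.0658).

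*Tm7sf2* and *Lbr* encode reductases for the same sterol step, and LBR is also a protein of the inner nuclear membrane. *Tm7sf2* was at 14.1 and 13.8 FPKM at the start, 35.3 and 65.6 FPKM on Day 1, 25.0 and 27.9 FPKM by Day 2 and 18.0 and 23.3 FPKM by Day 3. *Lbr* was at 19.5 and 21.8 FPKM before differentiation (Day 0), then 9.87 and 9.25 (Day 1), 6.7 and 6.34 (Day 2) and 6.19 and 7.05 FPKM (Day 3). The genes moved in opposite directions: from Day 0 to Day 1 *Tm7sf2* rose by 1.72 on the log2 scale (SE 0.27, adjusted p 0.00507), and *Lbr* fell by 1.03 (SE 0.20, adjusted p 0.0134). The call of *Tm7sf2* was lost without Day 0 replicate 2 (adjusted p 0.0524), and that of *Lbr* without Day 0 replicate 1, Day 0 replicate 2 or Day 1 replicate 2 (0.0780 to 0.121). *Lbr* was the sole enzyme whose Day 0 libraries were both above the rest, and on Day 3 it was still lower than on Day 0 by a log2 change of -1.50 (SE 0.20, adjusted p 0.000874). The log2 ratio of *Tm7sf2* to *Lbr* averaged -0.53 on Day 0 and 2.22, 1.87 and 1.50 on the next 3 days. *Tm7sf2* shares 532 exon bases with *Vps51* on the same strand.

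*Hsd17b7*, *Ebp* and *Sc5d*, 3 enzymes of the last part of the chain, were highest on Day 3. *Hsd17b7*, the sterol ketone reductase, was at 14.0 and 15.0 FPKM on Day 0, 61.5 and 76.4 FPKM a day later, 104 and 135 FPKM on Day 2 and 183 and 249 FPKM at the end (Day 3). Its 4 days did not overlap, and Day 3 exceeded Day 0 by a ratio of means of 14.9. The rise was 2.17 on the log2 scale by Day 1 (SE 0.20, adjusted p 0.000826) and 3.79 by Day 3 (SE 0.20, adjusted p 4.78e-05), which is 4.11 above the median of all genes. The single steps from Day 1 to Day 2 (0.78, adjusted p 0.0711) and from Day 2 to Day 3 (0.85, adjusted p 0.110) did not pass the test, and did with the replicate number as a block (adjusted p 0.0187 and 0.0384).

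*Ebp*, the sterol isomerase, was at 10.5 and 12.6 FPKM at the start, 13.6 and 18.9 FPKM on Day 1, 16.0 and 37.1 FPKM by Day 2 and 39.0 and 46.8 FPKM by Day 3. Its replicates were far apart on Day 2, where replicate 1 stood close to Day 1 and replicate 2 close to Day 3. It did not pass the test from Day 0 to Day 1 (log2 change 0.44, SE 0.35, adjusted p 0.479) but did by Day 3 (1.80, SE 0.35, adjusted p 0.00481). *Sc5d*, the desaturase, was at 36.5 and 39.5 FPKM before differentiation (Day 0), then 60.5 and 68.5 (Day 1), 65.3 and 84.8 (Day 2) and 73.0 and 94.2 FPKM (Day 3). It rose by 0.75 by Day 1 (SE 0.18, adjusted p 0.0305) and 1.11 by Day 3 (SE 0.18, adjusted p 0.00209), with overlapping values on Day 2 and Day 3. Its Day 1 call was lost without any 1 of the 4 libraries of Day 0 and Day 1 (adjusted p 0.0655 to 0.171). *Dhcr7*, the reductase that ends a branch of the chain, belonged to the Day 1 genes and was at 63.2 and 58.5 FPKM on Day 0, 135 and 166 FPKM a day later, 75.5 and 91.2 FPKM on Day 2 and 64.1 and 54.1 FPKM at the end (Day 3). It rose by 1.29 by Day 1 (SE 0.16, adjusted p 0.00182) and on Day 3 stood at a log2 change of -0.04 from Day 0 (adjusted p 0.849).

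Over the 15 enzymes with their highest mean on Day 1, the ratio of Day 1 to Day 0 means ran from 1.63 to 4.11 (median 2.77), and that of Day 3 to Day 0 means from 0.840 to 1.59 (median 1.34). Among all 33 genes the mean was highest on Day 1 for 19, and for 17 of them both Day 1 libraries lay above the other 6, as they did for 7.63% of all genes tested. After median ratio scaling, which raises the later days relative to Day 0 and Day 1, the mean was highest on Day 1 for 18 members, but both Day 1 libraries lay above the rest for 8 members (5.66% of all genes): *Hmgcs1*, *Mvk*, *Pmvk*, *Lss*, *Tm7sf2*, *Nsdhl*, *Dhcr7* and *Stard4*.

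The later days were compared with the same model. From Day 1 to Day 2, *Dhcr7* fell by 0.84 on the log2 scale (SE 0.16, adjusted p 0.0334) and *Stard4* by 1.19 (SE 0.22, adjusted p 0.0304), and 0 members rose (all genes: 1.73% fell, 2.16% rose). At an unadjusted p under 0.05 in limma, 14 members were lower and 1 higher. The share of all genes at that threshold, here and below, was not counted, so these counts are not a result about the members. The median change of all genes in this step was -0.19. With the replicate block 6 members fell (*Fdps*, *Idi1*, *Lss* and *Nsdhl* in addition) and 1 rose, *Hsd17b7*. Among all 12208 genes 436 fell and 367 rose with the block, against 211 and 264 without it. Of the 2 falls called, 0 remained without a filter on low values, 1 remained after median ratio scaling, and 0 remained with any single library of Day 0, Day 1 or Day 2 left out. Calls of all genes were also fewer in the fits without a library of these days. From Day 2 to Day 3, limma called 0 members in either direction (all genes: 0.246% rose, 0.0491% fell), and 8 were lower and 2 higher at an unadjusted p under 0.05. With the block 1 member rose (*Hsd17b7*) and 0 fell, beside 119 and 44 of all 12208 genes. Without Day 3 replicate 1 the calls of all genes in this step were more numerous in both directions, and a member was among the lower ones.

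Against Day 0, 11 members were higher on Day 2 (*Fdps*, *Hmgcs1*, *Mvd*, *Cyp51*, *Fdft1*, *Hsd17b7*, *Lss*, *Msmo1*, *Nsdhl*, *Sc5d* and *Tm7sf2*) and 1 was lower, *Lbr*, where 9.4% of all genes rose and 21.3% fell. The limma calls of *Fdps* and *Tm7sf2* were lost without a filter on low values (adjusted p 0.0739 and 0.0649), and that of *Fdps* with a pseudocount of 0.1 (0.0528). With a Day 0 or Day 2 library left out, *Tm7sf2* was not called in any fit, and *Cyp51*, *Fdps*, *Mvd* and *Nsdhl* were not called in some. The count of higher members was 18 after median ratio scaling, and 6 without Day 0 replicate 1 or without Day 2 replicate 2, while 2 members were lower without Day 0 replicate 1. With the replicate block *Ebp* (log2 change 1.03, adjusted p 0.0124) and *Srebf1* were called in addition. The calls of all 12208 genes moved too. They were 1148 higher and 2597 lower at first, 1669 and 1656 after median ratio scaling, and 1285 and 2979 with the block. Calls of all genes were also fewer with a Day 0 or Day 2 library left out.

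On Day 3, 8 members were higher than on Day 0 (*Hsd17b7*, *Ebp*, *Abca1*, *Sc5d*, *Lss*, *Hmgcs1*, *Msmo1* and *Nsdhl*) and 1 was lower, *Lbr*, where 12% of all genes rose and 26.3% fell. The last 4 of the higher genes changed by 0.55 to 0.66 on the log2 scale, with *Lss* at 0.66 (SE 0.20, adjusted p 0.0351) and *Nsdhl* at 0.55 (SE 0.19, adjusted p 0.0467). *Lss*, *Msmo1* and *Nsdhl* were each not called without any 1 of the 4 libraries of Day 0 and Day 3 (adjusted p 0.0605 to 0.209), and *Hmgcs1* was called in 1 of these 4 fits, that without Day 3 replicate 2. The count fell to 3 without Day 0 replicate 1 and to 4 without Day 0 replicate 2, Day 3 replicate 1 or Day 3 replicate 2, while 2 were lower without Day 3 replicate 1. With the replicate block *Cyp51* (log2 change 0.43, adjusted p 0.0328 against 0.120 without it) and *Srebf1* were called in addition. Calls of all genes were also fewer with a Day 0 or Day 3 library left out. The comparisons against Day 0 share its 2 libraries.

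Day 3 was also set against Day 1, a comparison added after seeing that most enzymes were highest on Day 1, so the direction of its calls was in view when it was chosen. It called 17 members lower and 3 higher, where 12.2% of all genes fell and 7.04% rose. *Stard4* fell by 1.85 on the log2 scale (SE 0.22, adjusted p 0.00206), *Lss* by 1.33 (SE 0.20, adjusted p 0.00440), *Dhcr7* by 1.33 (SE 0.16, adjusted p 0.00217) and *Insig1* by 1.11 (SE 0.16, adjusted p 0.00377). The higher genes were *Hsd17b7* (1.62, SE 0.20, adjusted p 0.00217), *Ebp* (1.36, SE 0.35, adjusted p 0.0307) and *Abca1* (1.06, SE 0.28, adjusted p 0.0359). The call of *Ebp* was lost without any 1 of the 4 libraries of Day 1 and Day 3, at log2 changes of 1.14 to 1.58. That of *Abca1* was lost without Day 1 replicate 2 (log2 change 0.78) and without Day 3 replicate 2 (0.81). The median of the 20 enzymes was -0.89, against -0.20 for all genes. Median ratio scaling, which removes that shift, left 10 of the 17 lower calls, and among all 12208 genes the lower calls went from 1485 to 788. Without Day 1 replicate 2 or Day 3 replicate 2 the lower calls numbered 8 and 7, and the higher calls numbered 1 without a filter on low values and without either Day 0 library, Day 1 replicate 2 or Day 3 replicate 2. Calls of all genes were also fewer in both directions with any 1 library left out. *Idi1* (-0.71, adjusted p 0.0733) was called lower with the replicate block (adjusted p 0.0220).

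**Figure D2:**
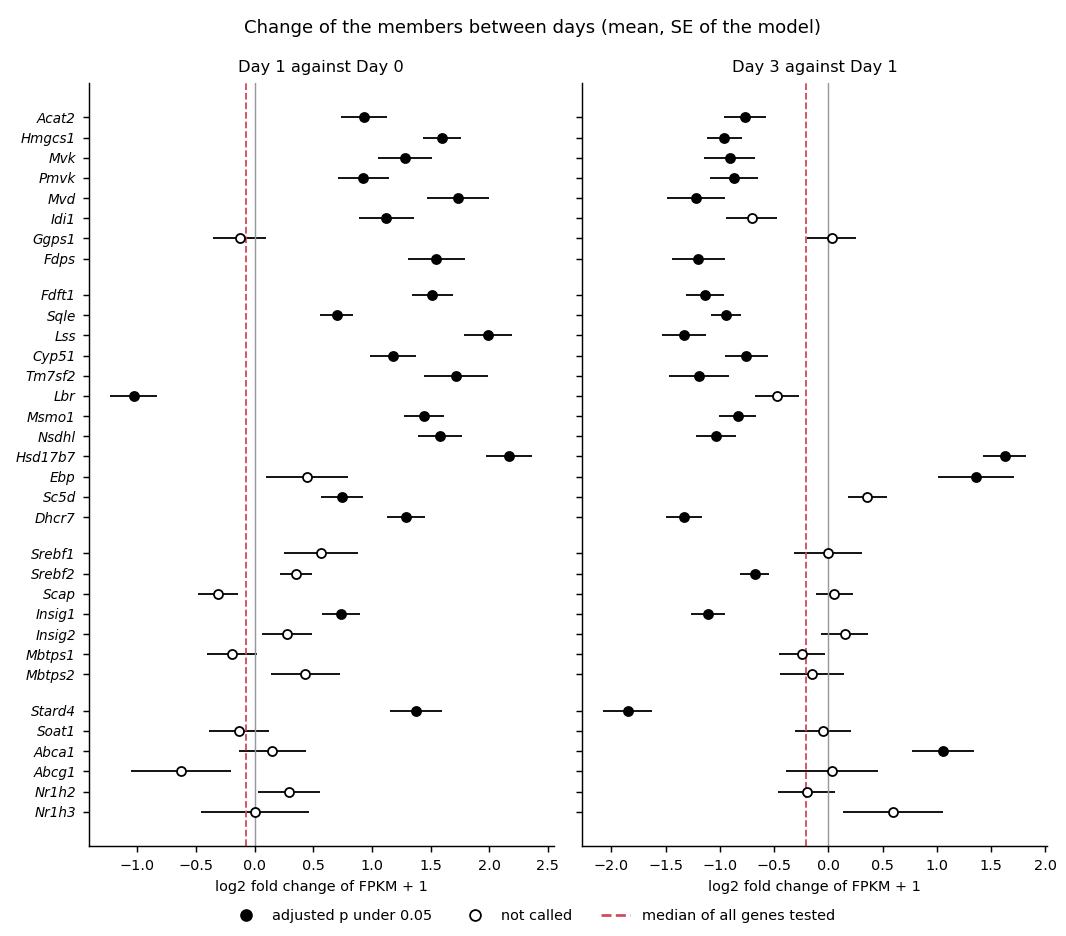
Change of each of the 33 genes from Day 0 to Day 1 and from Day 1 to Day 3, on the log2(FPKM + 1) scale, with the SE of the model as bars; filled points have an adjusted p under 0.05 and the dashed line is the median of all genes tested (-0.07 and -0.20). Nearly all enzymes lie right of the line in the left panel, and *Hsd17b7*, *Ebp* and *Abca1* are the filled points on the right side of the right panel.

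Of the 7 genes that control SREBP, *Insig1* alone passed the test from Day 0 to Day 1, and the median change of the 7 was 0.35 against -0.07 for all genes. *Insig1*, itself a known SREBP target, was at 79.5 and 82.5 FPKM at the start, 136 and 134 FPKM on Day 1, 104 and 123 FPKM by Day 2 and 71.7 and 54.0 FPKM by Day 3. It rose by 0.73 on the log2 scale (SE 0.16, adjusted p 0.0210), and its replicates were close on Day 0 and Day 1. The call was lost without any 1 of the 4 libraries of these days (adjusted p 0.0767 to 0.130). *Insig2*, its paralog, was at 7.7 and 6.97 FPKM before differentiation (Day 0), then 9.28 and 8.92 (Day 1), 7.07 and 7.32 (Day 2) and 11.2 and 9.33 FPKM (Day 3). It was the lower of the pair in every library and passed no test. The log2 ratio of *Insig1* to *Insig2* averaged 3.30 on Day 0 and 3.76, 3.80 and 2.50 on the next 3 days.

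*Srebf2*, the main driver of the synthesis genes, was at 95.6 and 86.3 FPKM on Day 0, 113 and 119 FPKM a day later, 92.2 and 108 FPKM on Day 2 and 76.0 and 68.7 FPKM at the end (Day 3). Both Day 1 libraries were above the others, by a narrow margin, and its change from Day 0 did not pass the test (0.35, SE 0.14, adjusted p 0.137). From Day 1 to Day 3 it fell by 0.68 (SE 0.14, adjusted p 0.0123), a call lost after median ratio scaling (adjusted p 0.0713), without Day 1 replicate 2 (0.0594) and without Day 3 replicate 2 (0.0702). *Srebf1*, which encodes the forms that mainly serve fatty acid synthesis, was at 19.7 and 29.4 FPKM at the start, 28.3 and 46.0 FPKM on Day 1, 36.9 and 55.9 FPKM by Day 2 and 30.1 and 43.0 FPKM by Day 3. Replicate 2 was higher on all 4 days. Without the block *Srebf1* passed no test (Day 2 against Day 0, 0.89, SE 0.32, adjusted p 0.0648). With the block it rose from Day 0 to Day 1 (0.56, adjusted p 0.0314), Day 2 (0.89, adjusted p 0.00206) and Day 3 (0.56, adjusted p 0.0142). It was also the sole member called between replicates, 0.58 higher in replicate 2 (adjusted p 0.0399), as were 0.68% of all genes. The astrocyte marker sum was also higher in replicate 2 on all 4 days, and its part in this difference was not tested.

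The other genes of SREBP control passed no test. *Scap*, the escort protein, ranged from 23.7 to 33 FPKM, *Mbtps1* (site 1 protease) from 26.9 to 45.1 FPKM and *Mbtps2* (site 2 protease) from 6.16 to 12.6 FPKM over the 8 libraries. Both Day 0 libraries of *Scap* lay above the other 6 by a narrow margin, and the days of the proteases overlapped. Exons of *Mbtps2* overlap those of *Yy2* on the same strand over 2867 bases, and *Yy2* averaged 1.54 FPKM.

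**Figure D3:**
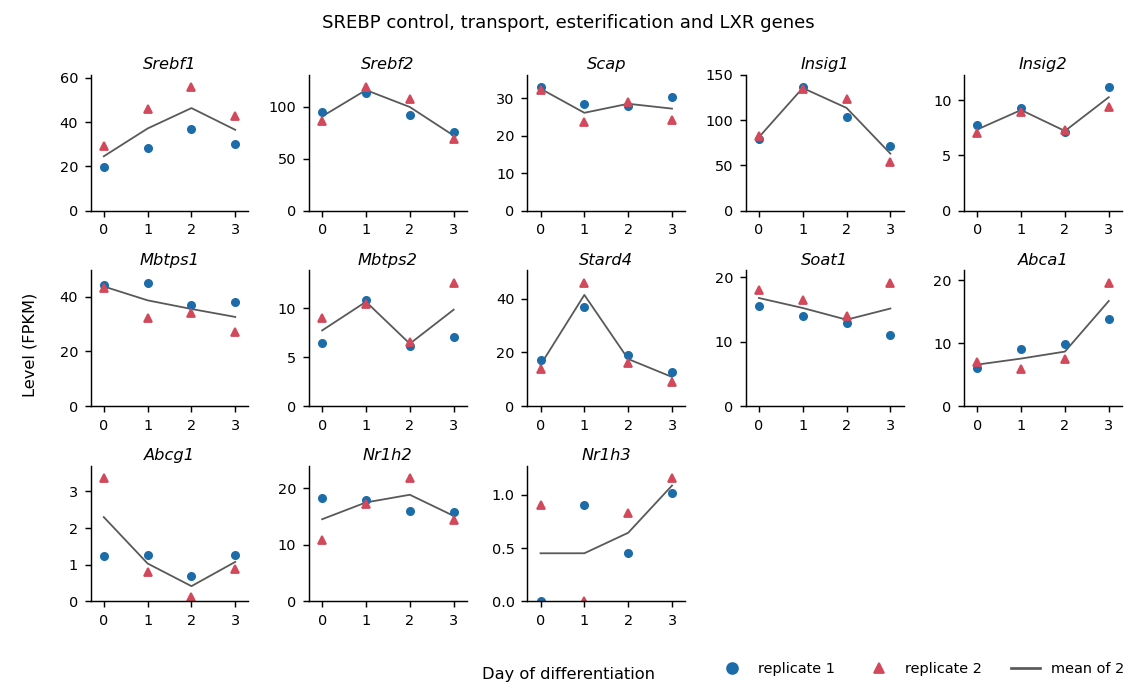
Level (FPKM, axes from 0) of the 7 genes of SREBP control and the 6 genes of transport, esterification and LXR against day of differentiation, with both replicates and their mean. *Insig1* and *Stard4* are highest on Day 1, *Abca1* on Day 3, and *Srebf1* is higher in replicate 2 on every day.

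Of the 6 genes that move, store or sense sterols outside the SREBP route, *Stard4* rose from Day 0 to Day 1 and *Abca1* rose by Day 3. *Stard4*, a carrier of free sterol within the cell, was at 17.0 and 13.7 FPKM before differentiation (Day 0), then 36.9 and 46.1 (Day 1), 19.0 and 16.1 (Day 2) and 12.6 and 9.09 FPKM (Day 3). It followed the synthesis enzymes, with a rise of 1.38 on the log2 scale by Day 1 (SE 0.22, adjusted p 0.00520) and Day 3 values under all others. The rise was not called without Day 0 replicate 2 (adjusted p 0.0602) or Day 1 replicate 2 (0.0504). *Abca1*, the pump that loads cholesterol onto lipoproteins outside the cell, was at 6.1 and 7.07 FPKM on Day 0, 9.14 and 5.94 FPKM a day later, 9.84 and 7.47 FPKM on Day 2 and 13.8 and 19.6 FPKM at the end (Day 3). Its Day 3 libraries lay above the other 6, and it rose by 1.21 from Day 0 (SE 0.28, adjusted p 0.0114). That call was lost without Day 0 replicate 1 (adjusted p 0.0750) and without Day 3 replicate 2 (adjusted p 0.0765). *Soat1*, which esterifies cholesterol for storage, ranged from 11.1 to 19.2 FPKM and passed no test.

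*Abcg1*, the other LXR-driven pump of the list, was at 1.23 and 3.36 FPKM at the start, 1.26 and 0.806 FPKM on Day 1, 0.706 and 0.129 FPKM by Day 2 and 1.26 and 0.897 FPKM by Day 3. These values rest on an estimated 1 to 24 fragments per library, and no test was passed (Day 2 against Day 0, -1.17, SE 0.43, adjusted p 0.0698). *Nr1h2* (LXRβ) was at 18.3 and 10.8 FPKM before differentiation (Day 0), then 17.9 and 17.1 (Day 1), 15.9 and 21.8 (Day 2) and 15.9 and 14.4 FPKM (Day 3). Its days overlapped. *Nr1h3* (LXRα) was at 0 and 0.904 FPKM on Day 0, 0.905 and 0 FPKM a day later, 0.456 and 0.834 FPKM on Day 2 and 1.02 and 1.16 FPKM at the end (Day 3). This is an estimated 0 to 2 fragments per library, so a fall or a small change in it could not be resolved at this depth. Of 3 known LXR targets in the list, *Abca1* had its highest mean on Day 3, *Srebf1* on Day 2 and *Abcg1* on Day 0, the last set by replicate 2.

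In 5 pairs of related genes the log2 ratio was tested for a difference between days by an exact permutation test over all arrangements of the libraries among the days, whose smallest possible p is 0.00952. The statistic was the spread between days over that within days, whatever the direction. The exact p was 0.0190 for *Abca1* to *Abcg1* (adjusted p 0.0714), 0.0286 for *Insig1* to *Insig2* (0.0714), 0.0476 for *Tm7sf2* to *Lbr* (0.0794), 0.276 for *Srebf1* to *Srebf2* (0.345) and 0.667 for *Nr1h2* to *Nr1h3* (0.667). After Benjamini-Hochberg adjustment over the 5 pairs none passed 0.05. With a library left out the adjusted exact p of *Insig1* to *Insig2* was 0.0476 (without Day 2 replicate 1 or without Day 2 replicate 2), as was that of *Tm7sf2* to *Lbr* (without Day 1 replicate 1). The ratios with *Abcg1* and *Nr1h3* rest on the few fragments given above.

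The replicates of the enzymes differed in a patterned way. Replicate 2 was above replicate 1 for 14, 17, 19 and 10 of the 20 enzymes from Day 0 to Day 3 in turn, with median ratios of 1.05, 1.33, 1.26 and 1.02. Over the same libraries the sum of the astrocyte markers was higher in replicate 2 on all 4 days, for example 167 against 522 FPKM on Day 1 and 148 against 952 FPKM on Day 3. *Aqp4*, a defining astrocyte gene, was at 0.898, 0.802, 2.58 and 3.97 FPKM in replicate 1 and at 22.9, 28.8, 59.7 and 84.8 FPKM in replicate 2 by day. Summed OL markers were also higher in replicate 2 on Day 1 (1508 against 2029 FPKM), Day 2 (6052 against 9672 FPKM) and Day 3. Summed OPC markers were lower in replicate 2 on these days (676 against 574, 410 against 326 and 261 against 162 FPKM). In limma with the block, *Pdgfra* (-1.81, adjusted p 0.0461) and the neuron marker *Tubb3* (-1.15, adjusted p 0.0035) were lower in replicate 2. The other OPC markers were not called between replicates. Neither were the neuron markers *Snap25* (0.46) and *Syt1* (-0.16), while *Rbfox3* and *Stmn2* stayed below 1 FPKM in every library. The part of these other differences in the replicate ratio of the enzymes was not tested. With the replicate number in the model, 20 members rose from Day 0 to Day 1, among them all 19 called without it. Among all 12208 genes 744 rose with it and 615 without it.

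**Figure D4:**
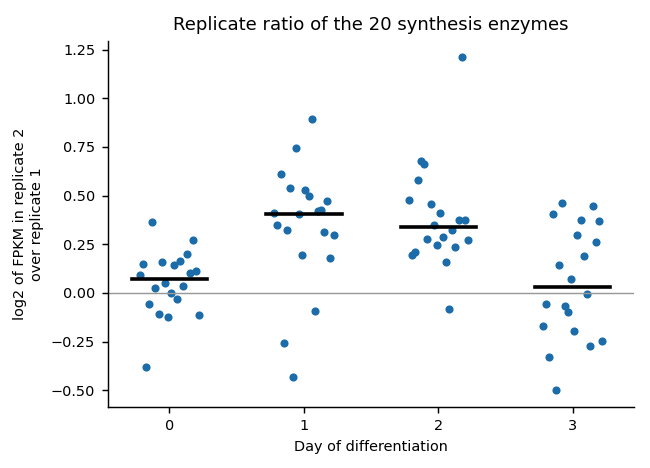
The log2 ratio of replicate 2 to replicate 1 of the 20 synthesis enzymes against day of differentiation, with a point for each enzyme and a bar for the median. The points lie mostly above 0 on Day 1 and Day 2 (17 and 19 of 20) and around 0 on Day 3 (10 of 20).

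A further 38 genes around the pathway were listed, of which 34 passed the filter on low values. From Day 0 to Day 1 the test called 3 of them higher and 1 lower (all genes: 5.04% higher, 7.56% lower), and their median change was -0.10, beside -0.07 for all genes. On Day 3 against Day 0 it called 7 higher and 9 lower, where 12% of all genes were higher and 26.3% lower, so the share of lower genes was near that of all genes. The largest rise was that of *Cyp46a1*, the enzyme that turns cholesterol into an oxysterol able to leave the brain, from 2.46 and 1.92 FPKM on Day 0 to 60.2 and 63.1 FPKM on Day 3 (log2 change 4.30, SE 0.32, adjusted p 8.42e-05). Both Day 3 libraries were above all others.

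Of 13 tested genes of transport and uptake, 3 rose by Day 3 and 4 fell, beside 12% and 26.3% of all genes. *Npc2*, which hands cholesterol out of the lysosome, was at 35.8 and 27.7 FPKM on Day 0 and 83.2 and 93.4 FPKM on Day 3 (1.46, SE 0.19, adjusted p 0.000658). *Nceh1*, a cholesterol ester hydrolase, rose by 1.20 (SE 0.32, adjusted p 0.0194, and 0.0661 to 0.113 without any 1 library of Day 0 or Day 3), and *Vldlr*, a lipoprotein receptor, by 1.36 (SE 0.18, adjusted p 0.000771). *Scarb1*, a receptor for high-density lipoprotein, fell by 1.95 (SE 0.32, adjusted p 0.00210), from 19.7 and 20.5 FPKM to 5.05 and 3.93 FPKM. *Arl4c*, *Abcg4* and *Lrp8* fell by 1.95, 1.27 and 0.93, the last 2 not called without Day 0 replicate 2 (adjusted p 0.0730 and 0.0649).

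Of 9 genes of sterol sensing and turnover, 3 passed the test on Day 3 against Day 0, each of them lower, beside the 26.3% of all genes that fell. *Tmem97*, a sterol-binding membrane protein, went from 36.7 and 26.3 FPKM to 8.94 and 2.35 FPKM (-2.47, SE 0.49, adjusted p 0.00533), and *Erlin1* and *Pgrmc1* fell by 1.68 and 1.04. *Tmem97* was not called without Day 0 replicate 1 (adjusted p 0.0508), nor *Erlin1* without Day 0 replicate 2 (0.0573). Of 9 genes of the isoprenoid branches, 3 rose by Day 3, *Fnta* (1.66), *Fntb* (1.20) and *Icmt* (1.05), which farnesylate proteins or methylate prenylated ones, and *Pdss1*, of ubiquinone synthesis, fell by 1.20. *Fntb* was not called without any 1 library of Day 0 or Day 3 (adjusted p 0.0610 to 0.132), and *Pdss1* was called in 1 of these 4 fits, that without Day 0 replicate 1. Of the 3 tested genes of oxysterol metabolism *Cyp39a1* fell by 1.81 and *Hsd3b7* was not called. The call of *Cyp39a1* was lost in 3 of the 4 fits without a library of these days (adjusted p 0.0561 to 0.194), with a pseudocount of 0.1 (0.108) and with the stricter filter (0.0583). The falls of *Pdss1* and *Cyp39a1* were not called after median ratio scaling, where the list had 7 higher and 7 lower genes.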

How the data were processed

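The authors processed stranded paired-end mRNA reads (75 nt) with OmicSoft ArrayStudio and deposited FPKM for 23427 genes in 8 libraries, with replicates not pooled. The labels name mm10. The aligner, gene model and strand setting are not given in the sources used here. The DESeq2 method that the study names needs counts and was not run.

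The test covered the 12208 genes that reached 1 FPKM in 2 or more libraries, on log2(FPKM + 1) with limma 3.58.1 in R 4.3.3 (lmFit, eBayes with trend), with day as a factor of 4 levels over all 8 libraries and Benjamini-Hochberg adjustment over all genes. Other steps used Python 3.11.15. Scripts were tested on simulated data with the means and spread of these genes, where 200 of 12208 were changed on Day 1. The model called 18% of the planted 2-fold changes and 60% of the 4-fold changes from Day 0 to Day 1. In the data 615 genes rose and 923 fell in that comparison, more than were planted. The adjustment was therefore stricter in the simulation, and these shares need not hold for the data. Planted changes were missed, so a gene that passed no test is not shown to be unchanged. Gene overlaps came from GENCODE M21, promoters from RefSeq, both GRCm38.

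Replicate numbers come from the labels. The replicate 2 minus replicate 1 differences correlated between days in all 6 pairs of days (r 0.16 to 0.29), so the numbers were taken to pair the libraries and a fit with the replicate block was run as an alternative. Others were a pseudocount of 0.1, no filter, FPKM of at least 10 in 1 library, median ratio scaling, and each library left out. Day 3 against Day 1, the shorter motif and the rescaled count of genes highest on Day 1 were added after seeing the data. Depth was estimated from low values of genes with 1 transcript, of which 62.4% to 68.2% came within 0.1 of whole fragments. It covers counting error only.

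All 33 members are accounted for. Values in every library are given for those called in at least 1 planned comparison and for 10 regulators and paired genes listed by role, and other pathway genes are named where called. Some listed genes are not reported here and were left out of the counts and sums. The members and lists were chosen with earlier results of these data known.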

Additional observations from a re-analysis of the deposited data

How the results depend on the processing

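No called log2 change of a member turned direction under the alternatives run. Besides the counts of members called that are given with each comparison, these moved by over 1.5 times: from Day 1 to Day 2 the fallen genes numbered 0 without a filter, 1 after median ratio scaling and 6 with the replicate block, and the risen 1 with the block. From Day 2 to Day 3, 1 rose with the block. On Day 2 against Day 0, 18 were higher after median ratio scaling. On Day 3 against Day 1, 1 was higher without a filter and 10 were lower after median ratio scaling, and 8 members had both Day 1 libraries on top after that scaling. With each library left out in turn, the range of members called was 10 to 19 higher and 0 to 1 lower on Day 1 against Day 0, 0 to 2 lower on Day 2 against Day 1, 0 to 1 lower on Day 3 against Day 2, 6 to 12 higher and 1 to 2 lower on Day 2 against Day 0, 3 to 8 higher and 1 to 2 lower on Day 3 against Day 0, and 1 to 3 higher and 7 to 18 lower on Day 3 against Day 1. The adjusted exact p of the pair ratios ran from 0.0476 to 0.127 for *Insig1* to *Insig2*, from 0.0476 to 0.159 for *Tm7sf2* to *Lbr*, from 0.0714 to 0.159 for *Abca1* to *Abcg1*, from 0.104 to 0.536 for *Srebf1* to *Srebf2* and from 0.21 to 0.905 for *Nr1h2* to *Nr1h3* over the alternatives. Calls of all genes also changed in number in the fits with a library left out. The cause of these moves was not tested, beyond the smaller number of libraries. Median ratio scaling shifted the median of all genes from -0.31 to -0.04 on Day 3 against Day 0 and from -0.20 to 0.00 on Day 3 against Day 1, and the share of calls that were higher went from 31.3% to 51.1% and from 36.6% to 59.4%. It also went from 30.7% to 50.2% on Day 2 against Day 0 and from 55.6% to 78.3% on Day 2 against Day 1. The replicate block changed the calls given beside *Hsd17b7*, *Ebp*, *Cyp51*, *Srebf1*, *Idi1* and the Day 2 falls, and no other call of a member. Depth limits *Abcg1* and *Nr1h3*.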
